A study of Mus musculus with 20 samples.

Results

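Interferon-stimulated genes are the genes that cells switch on when interferon binds its receptors. The set described here is a list of 42 such genes given by name, and all 42 were found in the RNA tables of mouse embryonic fibroblasts (MEFs), cells grown from mouse embryos. A line of its own was present for 41 of the 42, among 22593 genes with their own line in all 4 tables. The exception was Eif2ak2, which encodes the double-stranded RNA-activated kinase PKR and whose line also names Gm6548, so its RNA cannot be separated from that gene. Chromatin was described for all 42, against 20878 genes with a position in the RefSeq annotation.

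Wild-type (WT) MEFs were compared with knock-out (KO) MEFs from Pml-null mice, both on a C57BL/6 background, at passages 10 to 15, growing and given no interferon or other stimulus that the labels name. PML is the protein that builds PML nuclear bodies, and the labels do not say which part of the gene was deleted. Chromatin immunoprecipitation (ChIP) was directed at H3K27me3, H3K9me3, H3, PML and the replacement histone H3.3, which carried either a Flag or an HA tag. Each target was read once in each genotype. Cells for the H3.3 libraries had been transfected with a plasmid for the tagged histone, whereas RNA came from untransfected cells. RNA was given as FPKM (fragments per kilobase of transcript and sequencing depth) in 2 pairs of tables. The numbered pair pools 3 numbered samples per genotype into 1 table each, and the unnumbered pair holds 1 sample per genotype. Differences are KO minus WT of log2(FPKM + 1), which understates the change of low genes, and 2-fold means a difference of 1 on this scale throughout. Every value stands without a replicate, no test between genotypes was possible, and a difference below is a difference between these libraries.

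Type I interferons signal through a receptor with the kinases JAK1 and TYK2 to a transcription factor complex that holds STAT2 and IRF9. It binds the interferon-stimulated response element, a pair of GAAA half-sites in the promoters of many of these genes. Their products sense viral nucleic acid, block translation or viral replication, modify proteins with ISG15 and prepare peptides for antigen presentation. H3.3 is deposited outside DNA replication and is known from transcribed genes, whereas H3K27me3 and H3K9me3 mark silent chromatin.

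The promoter letters are shown because they differ widely among genes whose RNA was at least 2-fold higher in KO of the numbered pair. A promoter entry (RefSeq, GRCm38.p6, the assembly of mm10) was given for 33 of the 42 genes, from 250 bases before to 50 after the start. The element's core, GAAA and GAAA with any 2 bases between them, searched on both strands, was present in 16 of the 33, against 3.49% of 27025 promoters. The 250 bases before the start are printed 5′ to 3′ on the gene's strand for 5 genes of large numbered difference, with core matches in capitals; overlapping matches form 1 run. They are Cxcl10 (chr5:92348890-92349139, minus strand), Ifit1 (chr19:34640639-34640888, plus strand), Oasl2 (chr5:114896684-114896933, plus strand), Oas1a (chr5:120907526-120907775, minus strand) and Lgals3bp (chr11:118401960-118402209, minus strand).
Cxcl10: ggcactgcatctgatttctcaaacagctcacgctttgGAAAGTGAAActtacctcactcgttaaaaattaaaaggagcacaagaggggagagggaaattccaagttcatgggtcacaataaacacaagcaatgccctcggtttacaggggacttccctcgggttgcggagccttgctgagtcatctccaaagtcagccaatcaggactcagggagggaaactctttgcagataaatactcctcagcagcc
Ifit1: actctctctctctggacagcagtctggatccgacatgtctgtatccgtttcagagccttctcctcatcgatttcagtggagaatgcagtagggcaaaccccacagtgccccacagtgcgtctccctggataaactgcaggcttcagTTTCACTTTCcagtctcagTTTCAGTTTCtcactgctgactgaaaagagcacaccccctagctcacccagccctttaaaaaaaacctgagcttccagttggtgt
Oas1a: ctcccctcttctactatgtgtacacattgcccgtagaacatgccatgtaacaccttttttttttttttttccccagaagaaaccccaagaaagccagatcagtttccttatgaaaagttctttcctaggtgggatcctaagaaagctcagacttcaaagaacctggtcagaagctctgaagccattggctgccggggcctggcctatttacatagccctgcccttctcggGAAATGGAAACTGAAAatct
Oasl2: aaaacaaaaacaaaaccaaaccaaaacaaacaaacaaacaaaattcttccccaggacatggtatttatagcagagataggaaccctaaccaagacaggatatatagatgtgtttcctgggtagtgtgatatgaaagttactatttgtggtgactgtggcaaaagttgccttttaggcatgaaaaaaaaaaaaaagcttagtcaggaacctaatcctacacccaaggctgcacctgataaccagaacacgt
Lgals3bp: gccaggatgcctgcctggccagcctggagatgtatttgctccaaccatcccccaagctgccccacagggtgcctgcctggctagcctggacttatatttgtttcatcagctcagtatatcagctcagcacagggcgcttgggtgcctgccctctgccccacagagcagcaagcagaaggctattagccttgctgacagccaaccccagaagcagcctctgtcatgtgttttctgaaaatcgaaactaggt
Cxcl10 holds 1 match, Ifit1 holds 2 on the opposite strand and Oas1a holds 2 that overlap, whereas the printed windows of Oasl2 and Lgals3bp hold 0.

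Isg15 carried 3 matches within 78 bases of its start, namely GAAAAGGAAA, GAAACCGAAA and GAAACAGAAA. Ifit3 carried TTTCACTTTC and TTTCAGTTTC, the same letters on the same strand as the matches of Ifit1. Of the 16 genes with a core match, 6 had one within the 100 bases before the start. The start is that of the promoter entry. The printed windows of Oas1a and Oasl2 run into the annotated genes, which end at chr5:120907544 and begin at chr5:114896926. Allowing 1 mismatch raised the count to 27 of 33, but 35.7% of all promoters then matched. The letters TTCNNNGAA, a gamma-activated site, were present in 7 of 33 (8.47% of all promoters), and the kappa B-like letters (GGG, any 5 bases, CC) in 23 of 33 (50.4%). A match is a description of the letters and does not show binding, and these motifs may overlap each other.

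Several facts of the libraries bear on the values below. The unnumbered WT table carried macrophage RNA: over 16 marker genes the summed level was 211 FPKM in WT and 14.2 FPKM in KO, 14 of 16 were at least 2-fold lower in KO, and Tyrobp was at 18.1 and 0 FPKM. In the numbered pair the same markers summed to 2.95 FPKM in WT and 4.04 FPKM in KO, and 15 of 16 were under 1 FPKM in each. The exception was Cd14, at 1.67 FPKM in WT and 2.97 FPKM in KO, while Tyrobp, C1qa, C1qb and C1qc were at 0 in both tables. Levels of the 10 fibroblast markers varied: Col1a1 was at 3354 FPKM in WT and 990.2 FPKM in KO of the numbered pair, but 2 of the 10, Thy1 and Fap, were under 1 FPKM in both numbered tables. Thy1 was at 0.141 FPKM in WT and 0.100 FPKM in KO of the numbered pair against 209.8 and 120.3 FPKM in the unnumbered pair. Xist was at 19.5 FPKM in WT and 0.0517 FPKM in KO of the numbered pair and the Y-linked Ddx3y at 0.0384 FPKM in WT and 7.67 FPKM in KO, so these 2 tables differ in sex-linked RNA as well as in genotype. In the unnumbered pair Xist was at 5.89 and 8.25 FPKM and Ddx3y at 21.7 and 11.4 FPKM. Pml RNA was at 15.03 FPKM in WT and 10.2 FPKM in KO of the numbered pair and at 7.62 and 4.22 FPKM in the unnumbered pair. FPKM summed to 964437 in numbered WT and to 417175 in numbered KO. The part of these sex-linked and summed levels in the numbered results was not tested.

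In the numbered pair, 33 of the 41 interferon-stimulated genes had a KO level at least 2-fold above WT and 0 a level that far below it, where 3.18% of all listed genes were higher and 7.69% lower. The median difference of the 41 genes was 1.82, beside 0 over all listed genes and 0.06 over genes of at least 1 FPKM in either genotype. Ifi35 and Ifitm3 were the only 2 with a lower level in KO, under each pseudocount and scaling tried. Their differences were -0.77 and -0.81, but only -0.043 and -0.039 when scaled without ribosomal protein genes. When the tables were rescaled without ribosomal protein genes, the median of all genes of at least 1 FPKM moved to 0.78, and that of the 41 genes to 2.88. Under that scaling the share of such genes at least 2-fold higher went from 6.50 to 37.1%, and the share lower from 15.7 to 8.07%, while 38 of the 41 members were higher. With a pseudocount of 5, 16 of the 41 were, against 1.77% of such genes.

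The unnumbered pair went the other way. There 0 of the 41 genes reached a level 2-fold above WT in KO (0.899% of all listed genes), whereas 9 were at least 2-fold lower (1.98%). That count rests on the scale: it was 20 with a pseudocount of 0.1, 15 scaled without ribosomal protein genes, and 1, Bst2, with a pseudocount of 5. Under those settings 6.06%, 5.67% and 1.48% of genes of at least 1 FPKM were that much lower, beside 3.83% on the main scale. With a pseudocount of 5, 1 of 41 thus lay near the general share. The median difference was -0.61, against 0 over all listed genes. A lower level in KO was found for 37 of 41 (48.5% of 11687 genes of at least 1 FPKM), and a higher level for Oas1a, Ifi44 and B2m. The macrophage markers given above were also lower in KO in the unnumbered pair, and their part in it was not tested. In bulk RNA, fewer cells of a type and less RNA per cell cannot be told apart. In the numbered pair the same 16 markers summed to 2.95 FPKM in WT and 4.04 FPKM in KO, with Cd14 alone above 1 FPKM.

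The 9 genes at least 2-fold lower in the unnumbered KO were all among the 33 at least 2-fold higher in the numbered KO: Ifit1, Ifit3, Isg15, Usp18, Cxcl10, Irf7, Bst2, Psmb8 and Lgals3bp. Over all 22593 genes, 71 showed that combination. With a pseudocount of 5 only Bst2 of the 9 was still at least 2-fold lower in unnumbered KO. None of the 41 changed at least 2-fold in the same direction in both pairs. The counts above fix this, since 0 were that much lower in numbered KO and 0 that much higher in unnumbered KO. The share of all genes that did is not given.

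**Figure D1:**
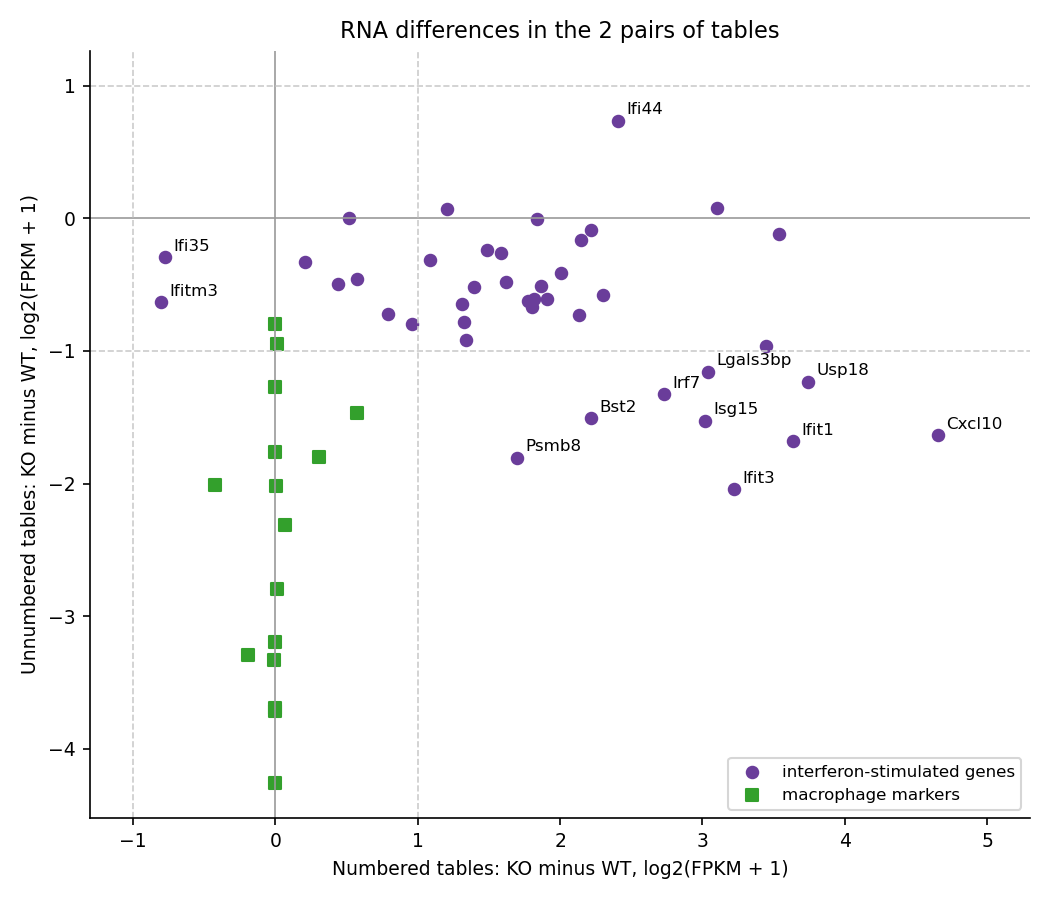
Each point is a gene, with the KO minus WT difference of log2(FPKM + 1) in the numbered tables on the x axis and in the unnumbered tables on the y axis, and dashed lines at 2-fold. Most interferon-stimulated genes (circles) lie to the right of 0 and below 0, and 9 lie beyond both dashed lines. The macrophage markers (squares) lie near 0 on the x axis and below 0 on the y axis.

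By the median of the members, the 4 tables ran from numbered KO through unnumbered WT and unnumbered KO to numbered WT. The tables were normalized separately, so this order of levels is a description. The median FPKM of the 41 genes was 6.55 in numbered KO, 3.02 in unnumbered WT, 0.823 in unnumbered KO and 0.492 in numbered WT. Numbered KO was the highest table for 32 of the 41, against 22.1% of 12071 genes of at least 1 FPKM, and unnumbered WT for 7. The lowest table was numbered WT for 23 of 41 (37.3% of genes) and unnumbered KO for 16 (16.8%). The 2 WT tables themselves differed: unnumbered WT was above numbered WT for 35 of 41 genes, against 57.4% of all genes compared. Between the 2 KO tables the unnumbered level was above the numbered one for 2 of 41, against 59.9% of genes. At least 1 FPKM was reached by 16, 38, 31 and 18 of the 41 genes in numbered WT, numbered KO, unnumbered WT and unnumbered KO. Over all listed genes the shares were 46.0, 46.9, 50.6 and 49.5% in the same order.

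**Figure D2:**
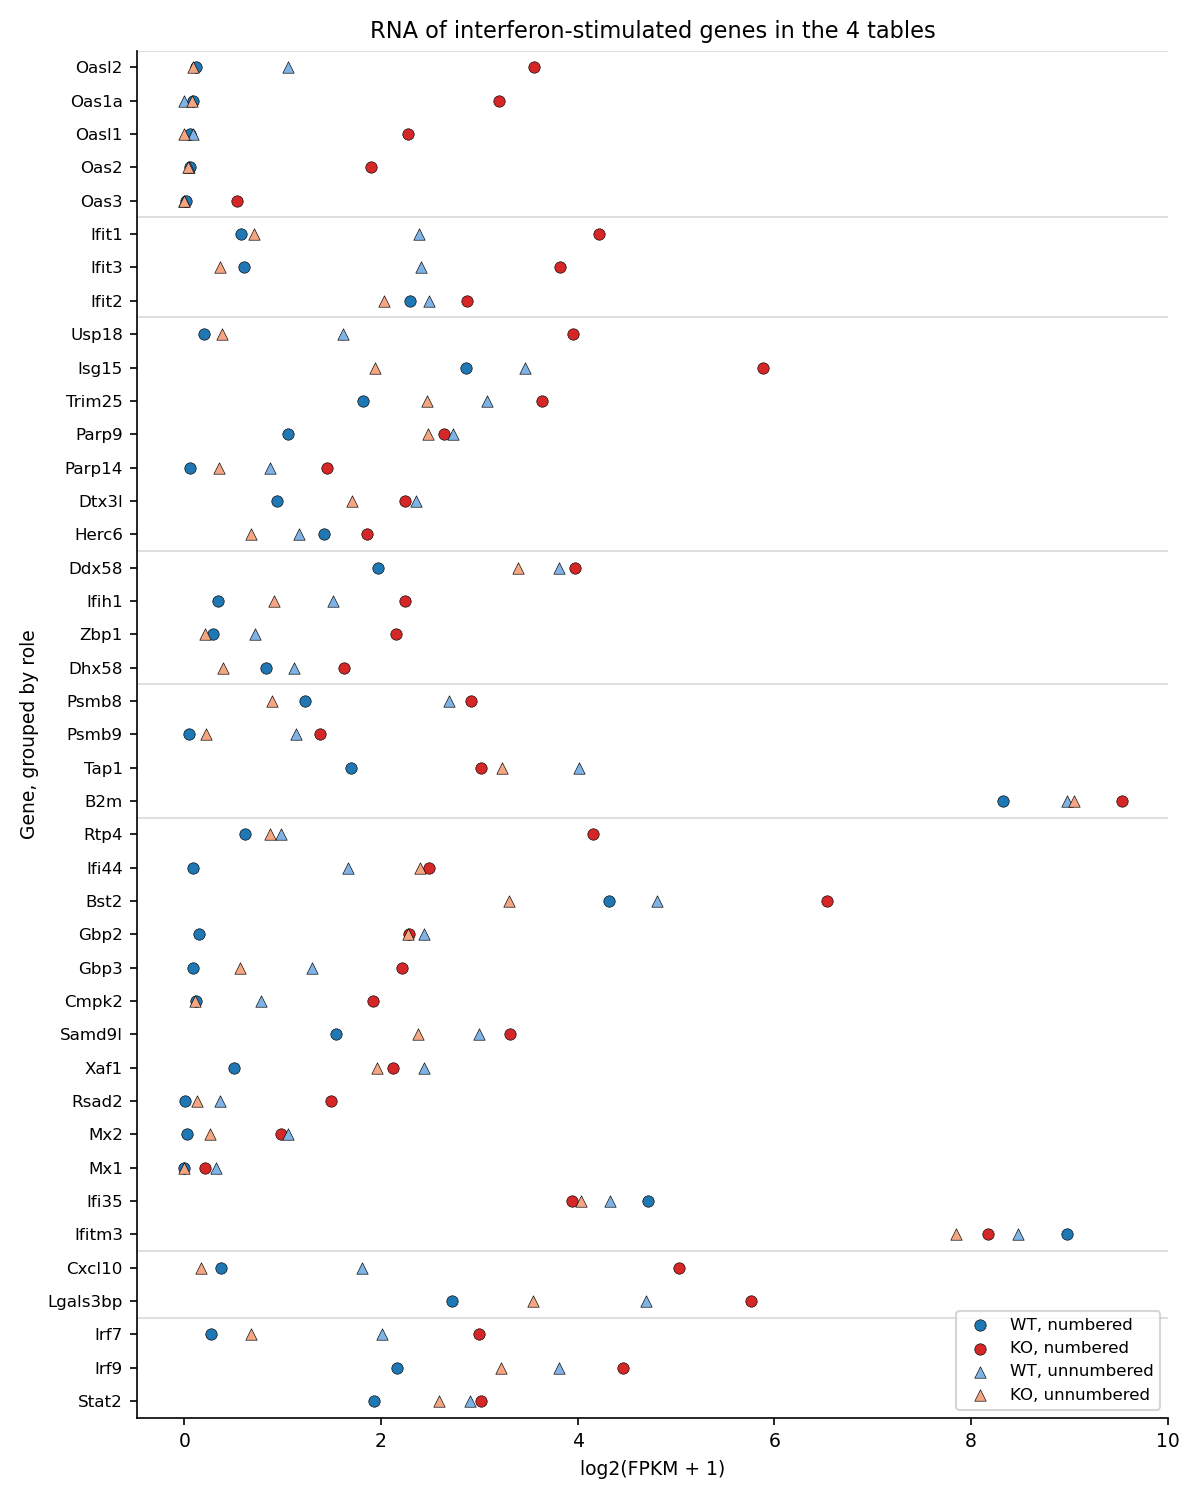
The log2(FPKM + 1) of 41 interferon-stimulated genes is plotted on the x axis, 1 point per table, with genes grouped by role on the y axis. Numbered KO is the right-most point for 32 genes, and the points of numbered WT and unnumbered KO lie furthest left for 23 and 16, positions those tables hold for 37.3% and 16.8% of all genes compared.

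Signalling transcription factors came first in the pathway. All 3 members were at least 2-fold higher in numbered KO, and 1, Irf7, was at least 2-fold lower in unnumbered KO. Irf7, which drives the later wave of interferon genes, was at 0.203 FPKM in WT and 6.99 FPKM in KO of the numbered pair (difference 2.73), and 3.02 and 0.604 FPKM in the unnumbered pair (-1.32). Irf9, the DNA-binding part of that complex, was at 3.46 FPKM in WT and 21.04 FPKM in KO of the numbered pair (difference 2.30), and 12.99 and 8.35 FPKM in the unnumbered pair (-0.58). Its partner Stat2 was at 2.81 FPKM in WT and 7.08 FPKM in KO of the numbered pair (difference 1.09), and 6.50 and 5.02 FPKM in the unnumbered pair (-0.32). All 3 were thus higher in KO of one pair and lower in KO of the other.

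Among the sensors of viral RNA and DNA, 3 of 4 were at least 2-fold higher in numbered KO and 0 at least 2-fold lower in unnumbered KO. Ddx58 encodes RIG-I and was at 2.92 FPKM in WT and 14.7 FPKM in KO of the numbered pair (difference 2.00), and 13.02 and 9.53 FPKM in the unnumbered pair (-0.41). Ifih1 encodes MDA5 and was at 0.269 FPKM in WT and 3.75 FPKM in KO of the numbered pair (difference 1.91), and 1.86 and 0.877 FPKM in the unnumbered pair (-0.61). Zbp1, a sensor of Z-form nucleic acid, was at 0.221 FPKM in WT and 3.45 FPKM in KO of the numbered pair (difference 1.87), and 0.646 and 0.156 FPKM in the unnumbered pair (-0.51). Dhx58 encodes LGP2, a regulator of the other RNA sensors; it was at 0.781 FPKM in WT and 2.07 FPKM in KO of the numbered pair (difference 0.79), and 1.16 and 0.309 FPKM in the unnumbered pair (-0.72) and did not reach 2-fold in either pair.

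The IFIT proteins bind viral RNA ends and hold back translation. Ifit1 was at 0.492 FPKM in WT and 17.6 FPKM in KO of the numbered pair (difference 3.64), and 4.23 and 0.632 FPKM in the unnumbered pair (-1.68). Ifit3 was at 0.518 FPKM in WT and 13.1 FPKM in KO of the numbered pair (difference 3.22), and 4.29 and 0.288 FPKM in the unnumbered pair (-2.04). In both genes the 2 WT tables lay on opposite sides of 1 FPKM. Ifit2, their neighbour, was at 3.92 FPKM in WT and 6.33 FPKM in KO of the numbered pair (difference 0.58), and 4.61 and 3.08 FPKM in the unnumbered pair (-0.46), so it did not reach 2-fold in either pair.

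The 2-5A synthetases make the messenger that activates RNase L, and the OASL proteins are their relatives. All 5 genes with a line were under 0.1 FPKM in numbered WT, and 4 of 5 were at least 2-fold higher in numbered KO. Oasl2 was at 0.0840 FPKM in WT and 10.8 FPKM in KO of the numbered pair (difference 3.44), and 1.07 and 0.0635 FPKM in the unnumbered pair (-0.96). Oas1a was at 0.0659 FPKM in WT and 8.16 FPKM in KO of the numbered pair (difference 3.10), and 0 and 0.0566 FPKM in the unnumbered pair (0.08). Oasl1 was at 0.0384 FPKM in WT and 3.84 FPKM in KO of the numbered pair (difference 2.22), and 0.0646 and 0 FPKM in the unnumbered pair (-0.09). Outside numbered KO, Oasl2 in unnumbered WT was the one value of these genes above 0.1 FPKM. Oas2 was at 0.0407 FPKM in WT and 2.73 FPKM in KO of the numbered pair (difference 1.84) and at 0.0336 and 0.0279 FPKM in the unnumbered pair. Oas3 was at 0.0139 FPKM in WT and 0.450 FPKM in KO of the numbered pair (difference 0.52) and was listed at 0 in both unnumbered tables. The line shared by Eif2ak2 and Gm6548 was at 7.39 FPKM in WT and 26.7 FPKM in KO of the numbered pair and at 12.9 and 13.4 FPKM in the unnumbered pair.

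Other antiviral effectors numbered 13, of which 9 were at least 2-fold higher in numbered KO and 1, Bst2, at least 2-fold lower in unnumbered KO. Rtp4 had the largest numbered difference, at 0.534 FPKM in WT and 16.9 FPKM in KO of the numbered pair (difference 3.54), and 0.978 and 0.823 FPKM in the unnumbered pair (-0.12). Ifi44 was at 0.0614 FPKM in WT and 4.62 FPKM in KO of the numbered pair (difference 2.41), and 2.17 and 4.28 FPKM in the unnumbered pair (0.74), the largest positive value of the 41 genes in the unnumbered pair. Bst2 encodes tetherin, which holds budding virions at the cell surface, and was at 18.9 FPKM in WT and 91.7 FPKM in KO of the numbered pair (difference 2.22), and 26.98 and 8.85 FPKM in the unnumbered pair (-1.51). The guanylate-binding genes Gbp2 and Gbp3 followed the common pattern. Gbp2 was at 0.106 FPKM in WT and 3.89 FPKM in KO of the numbered pair (difference 2.14), and 4.43 and 3.85 FPKM in the unnumbered pair (-0.16). Gbp3 was at 0.0615 FPKM in WT and 3.65 FPKM in KO of the numbered pair (difference 2.13), and 1.46 and 0.485 FPKM in the unnumbered pair (-0.73). Rsad2 encodes viperin, and its neighbour Cmpk2 a nucleotide kinase. Rsad2 was at 0.00260 FPKM in WT and 1.81 FPKM in KO of the numbered pair (difference 1.48), and 0.285 and 0.0897 FPKM in the unnumbered pair (-0.24). Cmpk2 was at 0.0823 FPKM in WT and 2.77 FPKM in KO of the numbered pair (difference 1.80), and 0.715 and 0.0793 FPKM in the unnumbered pair (-0.67). Both reached their highest level in numbered KO. Xaf1, a regulator of cell death, was at 0.423 FPKM in WT and 3.36 FPKM in KO of the numbered pair (difference 1.62), and 4.42 and 2.89 FPKM in the unnumbered pair (-0.48). Samd9l had differences of 1.77 and -0.62.

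The Mx genes stayed low. RefSeq lists Mx1 and Mx2 as transcribed pseudogenes in this assembly. Mx1 was at 0 FPKM in WT and 0.157 FPKM in KO of the numbered pair and at 0.253 and 0 FPKM in the unnumbered pair. Mx2 was at 0.0167 FPKM in WT and 0.980 FPKM in KO of the numbered pair (difference 0.96), and 1.07 and 0.195 FPKM in the unnumbered pair (-0.79). Ifitm3, which blocks viral entry, had the highest FPKM of the effectors, a unit already taken per transcript length, and was an exception in direction, at 504 FPKM in WT and 288 FPKM in KO of the numbered pair (difference -0.81), and 355 and 229 FPKM in the unnumbered pair (-0.63). Ifi35 was the other exception, at 25.3 FPKM in WT and 14.4 FPKM in KO of the numbered pair (difference -0.77), and 19.2 and 15.4 FPKM in the unnumbered pair (-0.29). Both were below their WT in both pairs, without reaching 2-fold. Scaled without ribosomal protein genes, the numbered differences were -0.039 for Ifitm3 and -0.043 for Ifi35.

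In the group of ISG15, its modifiers, ubiquitin ligases and PARPs, 6 of 7 were at least 2-fold higher in numbered KO and 2 at least 2-fold lower in unnumbered KO. Isg15, the ubiquitin-like modifier, was at 6.29 FPKM in WT and 58.1 FPKM in KO of the numbered pair (difference 3.02), and 10.02 and 2.83 FPKM in the unnumbered pair (-1.53). Usp18 removes ISG15 from proteins and dampens receptor signalling. It was at 0.152 FPKM in WT and 14.4 FPKM in KO of the numbered pair (difference 3.74), and 2.07 and 0.307 FPKM in the unnumbered pair (-1.23). Trim25, the ubiquitin ligase that acts with RIG-I, was at 2.53 FPKM in WT and 11.5 FPKM in KO of the numbered pair (difference 1.82), and 7.46 and 4.54 FPKM in the unnumbered pair (-0.61). Parp14 was at 0.0387 FPKM in WT and 1.74 FPKM in KO of the numbered pair (difference 1.40), and 0.823 and 0.275 FPKM in the unnumbered pair (-0.52). The adjacent partners Parp9 and Dtx3l had numbered differences of 1.58 and 1.31 and unnumbered ones of -0.26 and -0.65. Herc6, the main ISG15 ligase of the mouse, was at 1.67 FPKM in WT and 2.63 FPKM in KO of the numbered pair (difference 0.44), and 1.25 and 0.598 FPKM in the unnumbered pair (-0.49) and stayed under 2-fold.

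Antigen processing genes were all at least 2-fold higher in numbered KO (4 of 4), and 1 was at least 2-fold lower in unnumbered KO. Psmb8, a subunit of the immunoproteasome, was at 1.33 FPKM in WT and 6.55 FPKM in KO of the numbered pair (difference 1.69), and 5.45 and 0.849 FPKM in the unnumbered pair (-1.80). Psmb9, its companion subunit, was at 0.0310 FPKM in WT and 1.61 FPKM in KO of the numbered pair (difference 1.34), and 1.20 and 0.168 FPKM in the unnumbered pair (-0.92). The peptide transporter Tap1 was at 2.24 FPKM in WT and 7.11 FPKM in KO of the numbered pair (difference 1.32), and 15.1 and 8.38 FPKM in the unnumbered pair (-0.78). B2m, the light chain of MHC class I, had the highest FPKM of the members in 3 of the 4 tables, at 321 FPKM in WT and 739 FPKM in KO of the numbered pair (difference 1.20), and 504 and 528 FPKM in the unnumbered pair (0.07). Its unnumbered levels differed by little, unlike those of the other 3 genes.

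Both secreted members changed at least 2-fold in each pair, in opposite directions. Cxcl10, a chemokine that attracts T cells, had the largest numbered difference of the 41 genes, at 0.299 FPKM in WT and 31.7 FPKM in KO of the numbered pair (difference 4.65), and 2.49 and 0.124 FPKM in the unnumbered pair (-1.63). Lgals3bp, a secreted glycoprotein, was at 5.60 FPKM in WT and 53.3 FPKM in KO of the numbered pair (difference 3.04), and 24.96 and 10.7 FPKM in the unnumbered pair (-1.16).

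Upstream components were counted against the same shares of all listed genes, 3.18% higher and 7.69% lower in numbered KO, and 0.899% and 1.98% in unnumbered KO. Of 24 receptor, kinase and signalling genes, 1 exceeded WT by at least 2-fold in numbered KO and 2 were below it by as much (median 0.08). In unnumbered KO 0 exceeded it and 2 were below (median -0.08). The receptor chain Ifnar1 was at 10.05 FPKM in WT and 9.73 FPKM in KO of the numbered pair and at 18.7 and 18.5 FPKM in the unnumbered pair. Socs1, a feedback inhibitor of the receptor's kinases, was at 0.264 FPKM in WT and 2.77 FPKM in KO of the numbered pair (difference 1.58), and 11.4 and 4.44 FPKM in the unnumbered pair (-1.19). It showed the same opposite directions as the 9 members above. Irf3, which acts before interferon is made, was lower in numbered KO, at 25.9 FPKM in WT and 8.79 FPKM in KO, and so was its kinase gene Ikbke, at 5.24 FPKM in WT and 1.25 FPKM in KO. In the unnumbered pair the other gene at least 2-fold lower in KO was Socs3, at 57.03 and 22.03 FPKM. Irf1 was at 5.01 FPKM in WT and 8.08 FPKM in KO of the numbered pair (difference 0.60), and 10.6 and 5.99 FPKM in the unnumbered pair (-0.73).

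Interferon RNA itself was mostly listed at 0. Of 19 ligand genes, 17 had a line, and all 17 were listed at 0 in both unnumbered tables. In the numbered pair 16 were at 0 in WT and 14 in KO, and Ifnb1, the interferon beta gene, was at 0 FPKM in WT and 0.0711 FPKM in KO. Ifnz was the one ligand above 1 FPKM, at 1.38 FPKM in WT and 0.0813 FPKM in KO of the numbered pair. Depth is unknown, so a listed 0 gives no upper limit.

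Neighbouring responses were counted against those same shares of 3.18%, 7.69%, 0.899% and 1.98%. Of 20 NF-kB targets, 4 were higher by at least 2-fold and 2 lower in numbered KO (median 0.22), and 0 higher and 3 lower in unnumbered KO (median -0.52). Of 10 MHC class I and II genes with a line, 1 was at least 2-fold higher in numbered KO, H2-K1 at 5.55 FPKM in WT and 54.8 FPKM in KO. In unnumbered KO 1 was at least 2-fold lower, H2-T23 at 13.5 and 3.10 FPKM.

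H3.3-Flag covered the interferon-stimulated genes almost completely in both genotypes. Cover is the share of a gene's length inside the regions called by the authors, and a gene counts as covered from 50%. In WT 41 of 42 genes were covered (22.1% of all genes), and in KO the same 41 (23.4%). Rtp4 was the exception, with 35.1% in WT and 25.5% in KO of an annotated length of 94.0 kb. With a change of at least 50 percentage points counted as lost or gained, 0 genes lost H3.3-Flag cover in KO (2.58% of all genes, and 11.6% of those covered in WT). A gain (0 members, 2.92% of all genes) was possible for 1 member alone, Rtp4, so its absence says nothing about the set.

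The 41 genes sat in 33 distinct H3.3-Flag regions in WT and 34 in KO, since neighbours share regions. Their median length was 61 kb in each genotype, whereas the median of the whole list was 4 kb in WT and 6 kb in KO. Of these regions, 16 of 33 in WT and 14 of 34 in KO had an authors' signal above the percentile of 90 in their list. This signal may be scaled differently on chromosomes 10 to 19, so its ranks are approximate. The ranks are also taken over the whole list, which was not limited to regions that cover genes. Ifit1, Ifit2 and Ifit3 lay together in 1 WT region, chr19:34543001-34667000, with a signal above that of 99.9% of the list. In KO the same stretch was called as 2 regions, chr19:34544001-34620000 and chr19:34636001-34666000. Rsad2 and Cmpk2 shared chr12:26423001-26492000 in WT, and Psmb8, Psmb9 and Tap1 shared chr17:34178001-34219000, which was called with the same ends in KO.

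**Figure D3:**
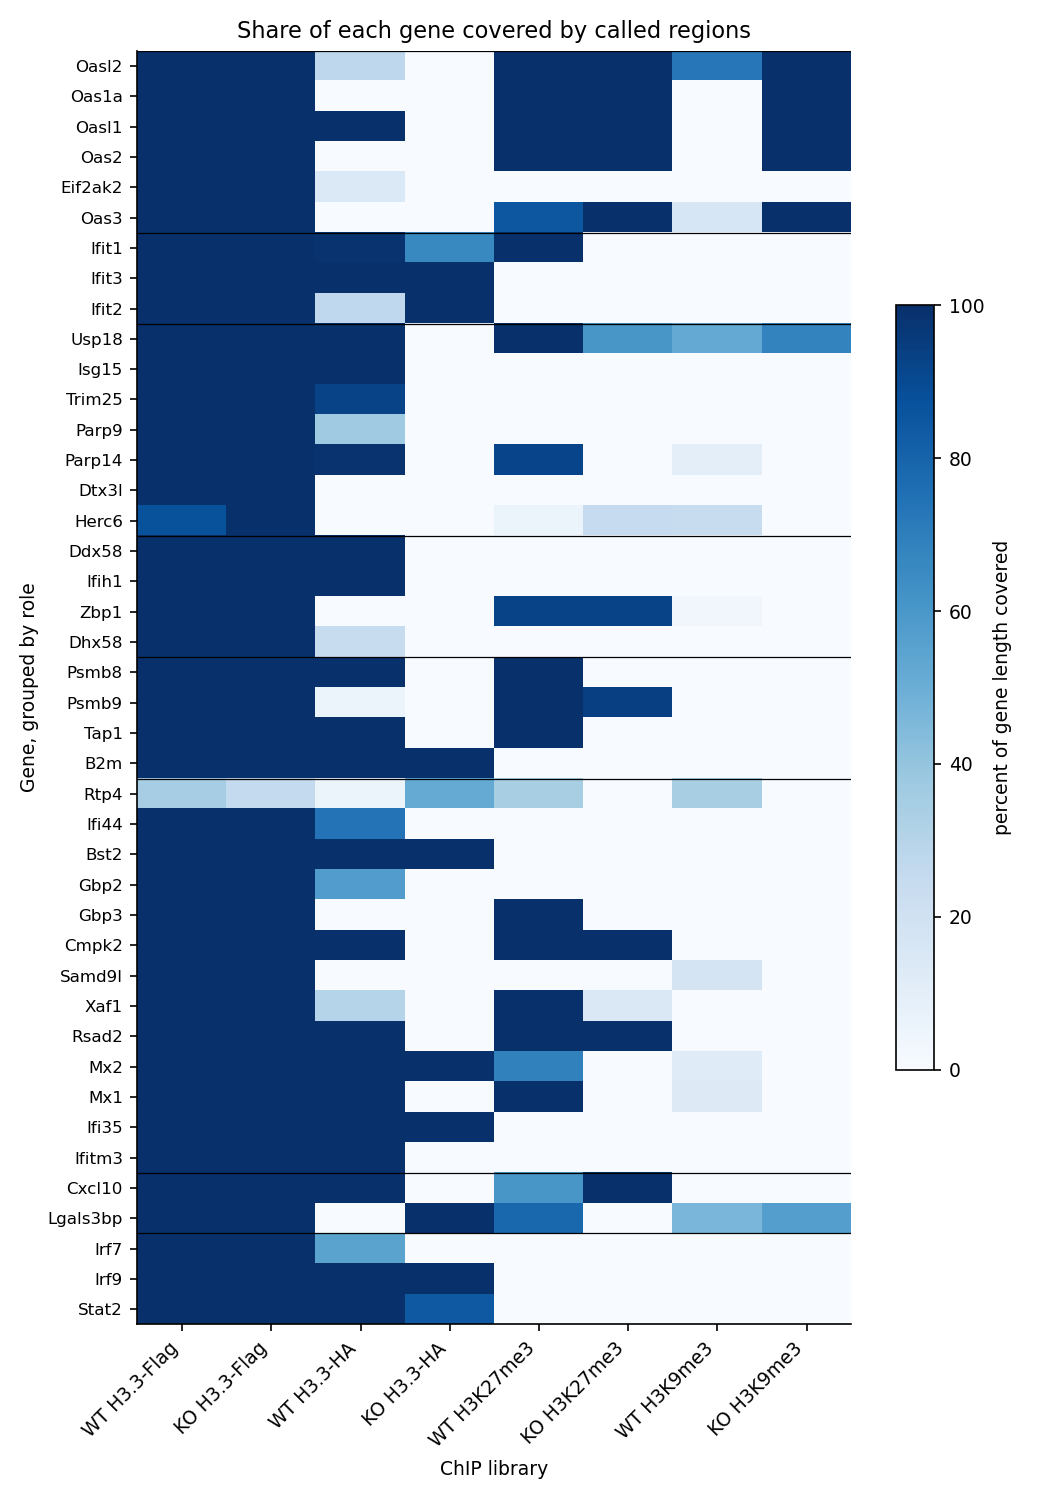
The shade gives the percent of each gene's length covered by called regions, with the 42 genes grouped by role on the y axis and 8 ChIP libraries on the x axis. The H3.3-Flag columns are filled in both genotypes for all genes but Rtp4, whereas H3.3-HA and H3K27me3 are filled for fewer genes in KO than in WT, and H3K9me3 fills the OAS genes in KO.

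H3.3-HA, the second tag, gave unlike cover in the 2 genotypes. In WT 25 of 42 genes were covered (9.02% of all genes), and in KO 11 (27.5%). In KO 17 genes lost the cover (3.05%), from 15 distinct WT regions: Isg15, Usp18, Cxcl10, Irf7, Oasl1, Mx1, Psmb8, Rsad2, Ddx58, Ifih1, Gbp2, Ifi44, Parp14, Tap1, Trim25, Cmpk2 and Ifitm3. Only a gene covered in WT can lose cover, and 17 of 25 such members did so, against 33.8% of such genes overall. Cover was gained by 2 genes, Ifit2 and Lgals3bp (21.3% of all genes), the latter within a KO region of 1872 kb. Only 17 members could gain it, since 25 were already covered in WT, where 9.02% of all genes were. The HA lists are unlike each other: WT held 6730 regions with a median of 5 kb over 73.6 Mb, and KO 1759 regions with a median of 62 kb over 480.5 Mb. The KO list thus covered more of the genome while it covered fewer of these genes. The 11 covered genes lay in 10 distinct KO regions with a median length of 273 kb. With a signal of at least 1, KO covered 8 members and 20 lost cover. With a signal of at least 3, KO covered 3 members and 22 lost cover. Shares of all genes under those settings are not given. The Flag lists showed 0 such losses, so the 2 tags gave different results for the same 17 genes.

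H3K27me3 covered 20 of 42 genes in WT (34.1% of all genes) and 11 in KO (31.8%). Cover was lost in KO by 9 genes (5.9%) in 8 distinct regions, namely Ifit1, Mx1, Mx2, Psmb8, Gbp3, Xaf1, Parp14, Tap1 and Lgals3bp, and 0 gained it (4.15%). Among genes covered in WT, the loss was 9 of 20 members against 17.3% of genes. Ifit1, Mx1 and Gbp3 went from 100% covered in WT to 0 in KO, and Ifit1 lay in a WT region of 166 kb. Psmb8 and Tap1 lost the mark, whereas Psmb9 next to them kept 93.8% cover of its length. Within 1 kb on both sides of its start, however, Psmb9 also counted as having lost the mark. The OAS genes kept it: Oas1a, Oasl1, Oasl2 and Oas2 were fully covered in both genotypes. Rsad2 and Cmpk2 kept it through a KO region whose signal, 0.758, was above that of 7.43% of its list. Usp18 went from 100% to 60.4%, and Cxcl10 from 60.5% to 100%. Cxcl10 and the OAS genes lie on chromosome 5, whose called H3K27me3 share was 38.3% in WT and 55.4% in KO. The median of the other chromosomes was 34.8% and 34.9%. The part of this in the cover of those genes was not tested. Without chromosome 5, 14 of 36 members were covered in WT and 5 in KO, and the shares of all genes for that subset are not given.

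**Figure D4:**
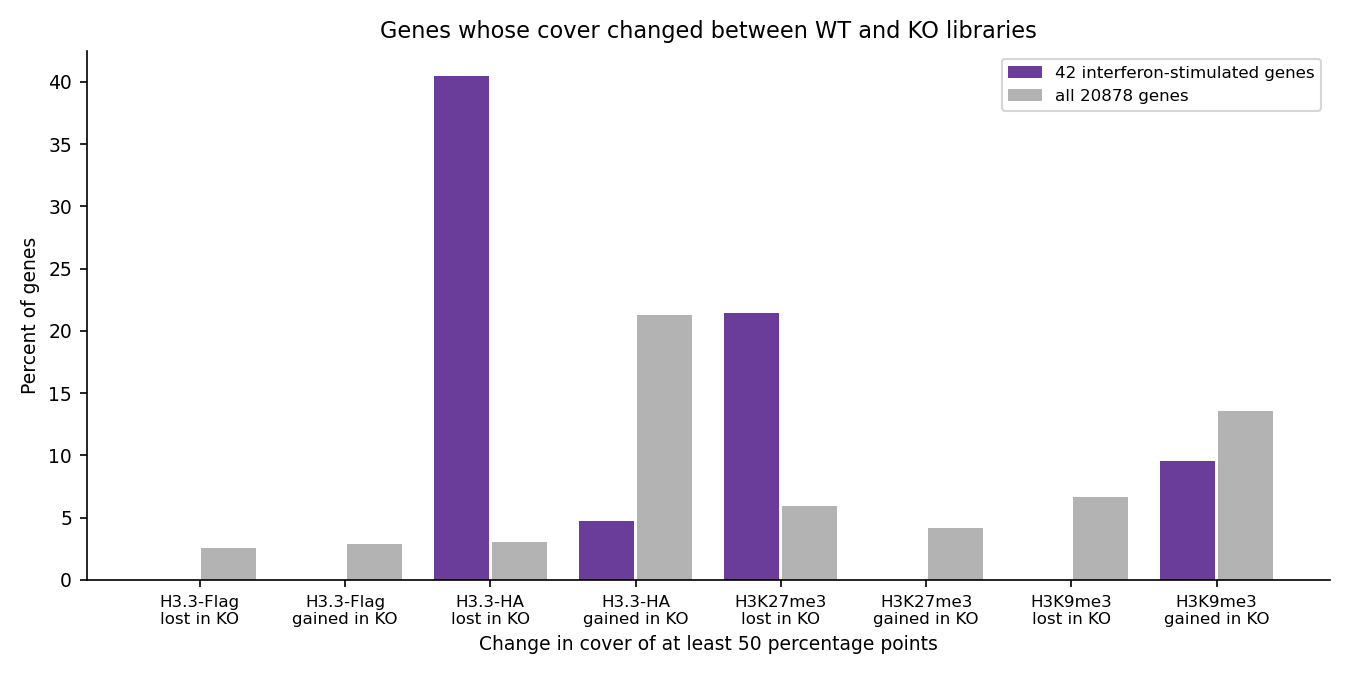
Bars give the percent of genes whose cover changed by at least 50 percentage points between WT and KO, for the 42 interferon-stimulated genes and for all 20878 genes, with 1 library per target and genotype. Losses of H3.3-HA (17 of 42) and H3K27me3 (9 of 42) stand above all genes, gains of H3.3-HA (2 of 42) stand below, and H3.3-Flag changes are at 0. Only 17 of the 42 could gain H3.3-HA, so the lower bar rests in part on their WT cover.

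Loss of H3K27me3 cover and RNA were then set side by side. Of the 9 genes that lost it, 7 were at least 2-fold higher in numbered KO, with a median difference of 1.62. Of 11 covered genes that did not lose it, 10 were at least 2-fold higher, with a median of 1.87. Of 21 genes not covered in WT, 16 were at least 2-fold higher, with a median of 1.82. In the unnumbered pair 3 of 9, 2 of 11 and 4 of 21 were at least 2-fold lower. Across all 1231 genes that lost the mark, 4.79% were at least 2-fold higher in numbered KO and 4.14% at least 2-fold lower in unnumbered KO.

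H3.3-Flag and H3K27me3 were then counted together. In WT 20 of 42 members were at least 50% covered by both, a combination found for 1.63% of all genes, and in KO 11 were (1.29%). Since H3.3-Flag covered 41 of 42 members, these counts equal those of H3K27me3. Of the 41 members under H3.3-Flag, 20 carried H3K27me3 in WT, beside 340 of 4620 genes under H3.3-Flag. In KO 11 of the 41 did, beside 269 of 4877 genes. Of 10 members under 1 FPKM in both WT tables, 9 carried both in WT (1.73% of genes that low) and 7 in KO (1.31%). These 9 were Oas1a, Oasl1, Oas2, Oas3, Mx1, Rsad2, Parp14, Zbp1 and Cmpk2. Among genes that low, H3.3-Flag covered 7.61% in WT and H3K27me3 57.6%. The RNA came from native cells and the H3.3 cover from transfected cells, and the part of transfection in the H3.3 cover of these genes was not tested. The 2 marks come from separate libraries, so cover of the same gene does not place them in the same cells. Of the 26 members that no H3 region touched, 8 carried both in WT and 2 in KO, against 1.56% and 1.13% of such genes.

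H3K9me3 was rare over these genes in WT. Usp18 and Oasl2 were covered in WT (2 of 42, against 17.4% of all genes), and 7 genes in KO (24.8%). Only 2 members could lose the cover, and 0 did (6.63% of all genes, 38.1% of those covered in WT), while 4 gained it (13.6%): Oas1a, Oasl1, Oas2 and Oas3. Oas1a, Oas2 and Oas3 lay in 1 KO region of 2703 kb on chromosome 5, and Oasl1 with Oasl2 in another of 884 kb. Chromosome 5 stood apart in this library, with 75.9% of its length called in KO against 11.2 to 45.9% of the other chromosomes, and 42.4% in WT. Without chromosome 5 the gain was 0 of 36, and the share of all genes for that subset is not given. The same OAS genes also lay inside 1 H3 region of 8740 kb in WT and 11100 kb in KO, and the part of this in the H3K9me3 gain was not tested.

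H3 regions covered 9 of the 42 genes in WT (23.5%) and 15 in KO (35.7%). In KO 7 genes gained H3 cover (15.7%), namely Cxcl10, Bst2, Psmb8, Psmb9, Dhx58, Tap1 and Ifitm3, and Usp18 lost it (1 of 42, against 3.55%). Of these 7, Cxcl10, Psmb8, Tap1 and Ifitm3 were also among the genes that lost H3.3-HA cover. That loss was found for 17 of all 42 members, and the overlap over all genes is not given.

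PML regions touched 0 of the 42 genes in WT, where 10.7% of all genes were at least 50% covered. The nearest member was Cmpk2, 10.2 kb from a WT PML region, followed by Rsad2 at 33.5 kb and Ddx58 at 83.8 kb. In KO 0 of 42 were touched as well (0.441% of all genes covered).

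Promoter letters and RNA were compared last. Of 15 members with the GAAA core and a line of their own, 13 were at least 2-fold higher in numbered KO, with a median difference of 2.13. Of 17 without it, 14 were at least 2-fold higher, with a median of 1.77. In the unnumbered pair 5 of 15 and 3 of 17 were at least 2-fold lower, with medians of -0.61 and -0.62. Ifitm3, one of the 2 members below WT in both pairs, carried 2 core matches just after its start, and Ifi35, the other, carried 0. Oasl2 and Lgals3bp, whose printed windows have 0 matches, had numbered differences of 3.44 and 3.04, next to 4.65 for Cxcl10 with 1 match and 3.64 for Ifit1 with 2.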

How the data were processed

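RNA and ChIP were measured in MEFs of 2 genotypes, 20 samples in all: 12 ChIP libraries and 8 RNA samples. Per the submitters' processing notes, the build was mm10 and the tools included Cufflinks 2.2.1, Cuffdiff 2.2.1, TopHat2 2.0.8b and Bowtie 1.0.0. How regions were called is not given in the sources used here. Deposited tables of RNA hold FPKM made by the authors, with the 3 numbered samples per genotype pooled into 1 table. The deposited ChIP lists give each region's signal, and for H3 and PML a score, as made by the authors. These values were used only to rank or filter regions within 1 list. Signal times region length in kb was whole (within 0.01) for 98.1 to 100% of regions on chromosomes other than 10 to 19 and for 3.38 to 30.2% on those, so ranks by signal may not compare across chromosomes, and chromosomes 10 to 19 were also analysed alone. Library depth is unknown from these files, and no interval was computed. Nothing in the labels says that the samples came from separate animals.

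Values were processed with pandas 2.3.3 and numpy 2.4.6 under Python 3.11.15 and plotted with matplotlib 3.10.9. Lines naming several genes (267 in the numbered and 271 in the unnumbered tables) were left out, except the one with Eif2ak2, which is given separately. RNA differences used a pseudocount of 1, and at least 2-fold means a difference of at least 1 on that scale. Gene positions came from RefSeq (GRCm38.p6, the assembly of mm10), matched by symbol for 42 of 42 members. Cover was computed over the gene's length. Cover and fold calculations were checked on simulated data.

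The members and gene lists were chosen with earlier results of these data known. All members are accounted for, and 1 gene of another list is not reported here. Values are given in full for the up to 3 members of each role with the largest difference in each pair and for every member whose cover changed by at least 50 percentage points, and others were added where they complete a group. In other lists, named genes are those of largest difference and the pathway's main nodes, and further genes named there were chosen after their values were seen. Promoters are printed for members of largest numbered difference, leaving out those without an entry and Ifit3, whose window lies within another of its transcripts. Alternatives covered the pseudocount, the FPKM minimum, the scaling, the signal minimum, equal covered length, the cover window and threshold, and chromosome subsets.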

Additional observations from a re-analysis of the deposited data

Results flagged for a closer look

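For 9 genes the KO minus WT difference was at least 2-fold in opposite directions in the 2 pairs of tables. The gap between the numbered and the unnumbered difference, on the log2(FPKM + 1) scale, was 6.29 for Cxcl10, 5.32 for Ifit1, 5.26 for Ifit3, 4.97 for Usp18, 4.55 for Isg15, 4.20 for Lgals3bp, 4.06 for Irf7, 3.72 for Bst2 and 3.50 for Psmb8. With 1 value per genotype and pair, the difference between the pairs was not tested.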

How the results depend on the processing

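No paired analysis was possible because the numbered samples were pooled into 1 table per genotype, and for the same reason leaving out a replicate could not be run. Of the alternative values for the main results, 91 stayed within their limits and 34 moved, with 0 reversed. The 91 include counts of 0 that stayed at 0, and an H3.3-HA loss that went from 17 to 22. The tally therefore does not measure stability. In the numbered pair the count at least 2-fold higher became 16 with a pseudocount of 5 and 20 of 23 at 5 FPKM or more. The median became 3.21 with a pseudocount of 0.1, 0.77 with 5, 2.22 at 5 FPKM or more and 2.88 scaled without ribosomal protein genes. In the unnumbered pair the count at least 2-fold lower became 20, 1, 4 of 14 and 15 under those settings, where the 1 was Bst2, and the median -0.95 (0.1), -0.24 (5) and -0.71 (scaled). The shares lower among genes of at least 1 FPKM were 6.06% (0.1), 1.48% (5) and 5.67% (scaled).

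With a window of 1 kb around the start (33 genes), 1 gene, Oasl2, lost H3.3-Flag, 1 gained H3.3-HA, 2 gained H3K27me3, and both H3.3-Flag and H3K27me3 lay over 11 genes in WT and 6 in KO. In that window 6 genes lost H3K27me3, among them Psmb9, which kept it over most of its length. H3.3-HA gain was 0 with a signal of at least 3 or equal covered length, where KO covered 3 members and 22 lost cover. With a change of 25 percentage points, 1 gene lost H3K9me3 and 1 gained H3K27me3. On chromosomes 10 to 19 alone (22 genes), 7 lost H3.3-HA, 0 gained H3K9me3, and both marks lay over 11 in WT and 3 in KO. Shares of all genes under the settings of this paragraph are not given, so its counts have no background.

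Leaving out chromosome 5, and using the 26 members that no H3 region touches, were chosen after seeing the data. Without chromosome 5 (36 genes) H3K9me3 gain was 0, and both marks lay over 5 in KO. Without H3 regions, 10 lost and 1 gained H3.3-HA, 0 gained H3K9me3, and both marks lay over 8 in WT and 2 in KO. For these 2 subsets, shares of all genes are given only for both marks without H3 regions (1.56% in WT and 1.13% in KO). The core count with 1 mismatch was 27. Subsets hold fewer genes, and the cause of the other shifts was not tested. Depth is unknown, and no value has a replicate.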
